A study of Mus musculus with 15 samples.

Results

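The odorant receptor genes numbered Olfr986 to Olfr1318 form a long run of olfactory receptor genes on mouse chromosome 2. Members were the genes whose older symbol is Olfr and a number in that range, without the suffix that marks a pseudogene. 10 receptors were left out by name: Olfr1026, Olfr1030, Olfr1031, Olfr1047, Olfr1116, Olfr1167, Olfr1170, Olfr1197, Olfr1252 and Olfr1283. This gave 232 members, of 242 intact receptors in the number range, 1107 intact odorant receptors in the table and 57010 genes in all. In the annotation of the older build GRCm38, 231 members lie on chromosome 2 and 1, Olfr986, lies on chromosome 9. The 10 omitted receptors were chosen with results of these data known, and 9 of them were called in the test of any difference among the 5 groups, so the counts below do not describe the whole run of genes.

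The libraries held messenger RNA bound to ribosomes with phosphorylated S6 protein, taken from the olfactory epithelium of wild-type male C57BL/6J mice aged 8 weeks. There were 5 groups of 3 mice, all kept alone and without odour for 4 h and then exposed for 90 min. A+D mice received acetophenone and decanal, 10 µL of each, on 1 filter paper, and A&D mice received them on 2 papers 1 mm apart. Octanal and cis-3-hexenol were given in the same amounts, on 1 paper to O+C mice and on 2 papers to O&C mice. Control mice received paper without odorant. No group received 1 odorant alone, so a response belongs to a mixture and not to either of its components. The libraries held 22704193 to 25287077 counts, and the Pearson correlation of a library with the others averaged 0.958 for A+D replicate 2 and more for every other library. Obp2a, a lipocalin gene used as a sign of nasal gland RNA, was under 10 CPM in 5 libraries, which were A+D replicate 2, A&D replicate 1, O&C replicates 1 and 3 and Control replicate 1.

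Odorant receptors are G protein-coupled receptors of the olfactory sensory neuron, and each such neuron expresses 1 receptor allele out of the whole repertoire. Activity leads to phosphorylation of ribosomal protein S6, so the transcript of a receptor is enriched in the precipitate when the neurons that carry it respond to an odour. The older MOR names group mouse receptors into families by the similarity of their sequences, and neighbouring genes often belong to 1 family. Members with a readable MOR name numbered 227, in 47 families, of which 14 had 1 member each. The largest were MOR245 with 22 members, MOR233 with 16, MOR248 with 15, MOR231 with 14, MOR264 with 14, MOR177 with 12 and MOR174 with 10.

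Of the 50 members that differed between the odorant pairs, 6 belong to MOR231, 5 to MOR233, 6 to MOR264 and 2 to MOR188. Coding sequences of receptors from these 4 families are shown over 1 stretch of 108 bases that reaches from the extracellular side of the third transmembrane helix to the conserved motif at its intracellular end, whose 18 bases end each line. The sequences come from GENCODE release M21 on GRCm38, 5′ to 3′ on the coding strand, and positions are on that build. Capitals mark the bases that differ from the first receptor of each set. The first set is from MOR231 and starts with Olfr1240 (chr2:89439915-89440022, minus strand), the receptor with the highest level in octanal/cis-3-hexenol mice. Olfr1238, Olfr1242, Olfr1243 and Olfr1256 were likewise lower in acetophenone/decanal mice than in octanal/cis-3-hexenol mice, and Olfr1254 was higher.
Olfr1240: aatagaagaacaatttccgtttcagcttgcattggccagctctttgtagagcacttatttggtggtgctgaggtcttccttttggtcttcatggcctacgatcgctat
Olfr1238: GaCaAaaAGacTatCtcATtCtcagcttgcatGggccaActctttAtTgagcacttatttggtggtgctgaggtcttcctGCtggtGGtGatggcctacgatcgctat
Olfr1242: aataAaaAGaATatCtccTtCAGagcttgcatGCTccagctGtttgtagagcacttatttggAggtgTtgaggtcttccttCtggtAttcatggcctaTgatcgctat
Olfr1243: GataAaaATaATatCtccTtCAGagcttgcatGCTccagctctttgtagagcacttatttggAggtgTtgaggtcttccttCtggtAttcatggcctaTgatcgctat
Olfr1256: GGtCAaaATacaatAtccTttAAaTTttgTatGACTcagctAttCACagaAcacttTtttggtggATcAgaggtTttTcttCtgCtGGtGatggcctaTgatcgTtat
Olfr1254: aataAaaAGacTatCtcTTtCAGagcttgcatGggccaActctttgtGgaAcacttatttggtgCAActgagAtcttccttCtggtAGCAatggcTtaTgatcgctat
Over the whole coding sequence Olfr1240 was 80.6% identical to Olfr1238, 78.6% to Olfr1243, 77.9% to Olfr1242 and 68.4% to Olfr1256, which differed in the same direction. It was 79.7% identical to Olfr1254, which differed in the opposite direction. In this stretch 25 bases of Olfr1254, 19 of Olfr1238, 19 of Olfr1243, 19 of Olfr1242 and 35 of Olfr1256 differed from Olfr1240.

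The second set is from MOR264 and holds 4 genes that follow each other on chromosome 2, starting with Olfr1124 (chr2:87434768-87434875, plus strand), the receptor that differed between delivery methods. It is shown because successive genes of this row differed in opposite directions between the odorant pairs.
Olfr1124: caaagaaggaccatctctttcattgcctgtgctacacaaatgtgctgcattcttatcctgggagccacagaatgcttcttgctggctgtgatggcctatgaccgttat
Olfr1123: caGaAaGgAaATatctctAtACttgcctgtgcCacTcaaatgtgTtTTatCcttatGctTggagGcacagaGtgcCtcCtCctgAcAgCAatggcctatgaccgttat
Olfr1122: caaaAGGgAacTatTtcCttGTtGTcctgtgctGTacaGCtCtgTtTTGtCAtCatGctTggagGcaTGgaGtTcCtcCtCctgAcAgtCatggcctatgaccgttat
Olfr1121: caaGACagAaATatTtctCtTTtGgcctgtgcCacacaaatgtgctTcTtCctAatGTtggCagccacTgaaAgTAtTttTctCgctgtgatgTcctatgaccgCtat
The third set is the pair of MOR188 receptors that were highest in acetophenone/decanal mice relative to octanal/cis-3-hexenol mice, starting with Olfr1087 (chr2:86690605-86690712, minus strand).
Olfr1087: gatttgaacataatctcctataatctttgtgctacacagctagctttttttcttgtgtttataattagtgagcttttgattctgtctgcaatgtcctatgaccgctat
Olfr1054: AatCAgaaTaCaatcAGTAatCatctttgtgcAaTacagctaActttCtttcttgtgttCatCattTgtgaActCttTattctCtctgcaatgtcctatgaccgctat
The fourth set is from MOR233, starting with Olfr1215 (chr2:89001921-89002028, minus strand). It is shown because Olfr1215 and Olfr1221 differed most in response among pairs of members of at least 80% identity, while Olfr1225 responded as Olfr1215 did.
Olfr1215: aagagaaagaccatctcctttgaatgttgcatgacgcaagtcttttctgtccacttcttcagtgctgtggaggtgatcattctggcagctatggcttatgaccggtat
Olfr1225: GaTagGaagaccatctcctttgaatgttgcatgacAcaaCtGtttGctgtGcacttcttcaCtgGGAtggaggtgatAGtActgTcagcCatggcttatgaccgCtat
Olfr1221: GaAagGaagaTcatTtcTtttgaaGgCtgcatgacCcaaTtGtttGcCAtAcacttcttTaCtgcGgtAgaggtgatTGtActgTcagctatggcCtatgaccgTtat

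Levels are given as CPM, a gene's count relative to the scaled size of its library, which is not divided by transcript length. In Control mice 111 of the 232 members averaged under 1 CPM, 89 averaged from 1 to under 5 CPM and 32 averaged 5 CPM or more. At this depth 1 count was worth 0.0389 to 0.0445 CPM. No count was seen in any library for 4 members, Olfr1053, Olfr1061, Olfr1128 and Olfr1285, and 178 members had a count in all 15. The count filter left 183 members to be tested, of which 149 were over its level in all 3 Control libraries, and the other 34 passed with the help of other libraries. The 49 members that were not tested reached at most 19 counts in any library. The 5 members with the highest CPM in Control were Olfr1261, Olfr1226, Olfr1018, Olfr1257 and Olfr1228. Olfr1018 (MOR260) had 18.5 ± 1.55 CPM in A+D mice, 19.5 ± 1.42 CPM in A&D mice, 17.8 ± 0.109 CPM in O+C mice, 16.4 ± 1.65 CPM in O&C mice and 17.7 ± 1.84 CPM in Control mice (mean ± SD, n = 3 each), and its groups overlapped in every comparison with Control. Olfr1261 had 12.2 ± 4.34 CPM in O+C and 11.9 ± 0.135 in O&C, against 17.9 ± 2.97 CPM in Control mice. Its values in the 3 O&C mice lay under all 3 Control values, but the difference did not pass the threshold (log2 fold change -0.59 ± 0.20, adjusted p = 0.0522). The counts of Olfr1226, Olfr1260, Olfr1261 and Olfr1262 were not whole numbers in more than 7 of the 15 libraries, as happens where reads are divided between similar genes, so their values are uncertain. This held for 22 members, and the counts of 121 were whole in every library.

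Summed over all members, the level was 530 ± 83.8 CPM in A+D mice, 573 ± 18.3 CPM in A&D mice, 581 ± 16 CPM in O+C mice, 620 ± 120 CPM in O&C mice and 533 ± 61.4 CPM in Control mice (mean ± SD, n = 3 each). The groups overlapped. The members' share of all counts on intact odorant receptors averaged 13.8% in A+D mice, 12.1% in A&D mice, 12.3% in O+C mice, 11.5% in O&C mice and 16.2% in Control mice. The total includes the 10 omitted receptors, which were chosen with results known, and the members' counts do not. These shares therefore depend on the choice of members and do not describe the whole run of genes. In these precipitates, 3 things cannot be told apart for a lower value. They are fewer neurons that carry the receptor, less of its RNA per neuron, and less of that RNA bound to ribosomes with phosphorylated S6. Markers of several cell types moved with the odour groups. The summed level of the 6 markers of mature olfactory sensory neurons (Omp, Cnga2, Gnal, Adcy3, Stoml3 and Umodl1) was 8190 to 10200 CPM in A+D, 10300 to 13000 in A&D, 11800 to 15000 in O+C, 12000 to 16700 in O&C and 7050 to 7990 CPM in Control, and none of them was at 0. The 4 markers of sustentacular cells, the supporting cells of the epithelium, summed to 748 to 900 CPM in A+D mice, 706 to 904 CPM in A&D mice, 634 to 855 CPM in O+C mice, 677 to 875 CPM in O&C mice and 912 to 1160 CPM in Control mice. Markers of red blood cells were 7040 to 9960 CPM in O&C mice, against 12600 to 19800 CPM in Control mice. Immune markers were 387 to 424 CPM in O+C mice, against 588 to 967 CPM in Control mice. Markers of ensheathing glia were 54 to 67.6 CPM in O+C mice, against 96 to 102 CPM in Control mice. Markers of immature neurons were 1420 to 1660 CPM in A+D mice and 1040 to 1160 CPM in O&C mice, against 1200 to 1350 CPM in Control mice. Each odour range given here lay clear of the Control range, while ranges of odour groups could overlap each other. Other ranges also lay clear below Control. Among them were immune markers in A+D (499 to 573 CPM) and O&C (336 to 543 CPM), and ensheathing glia markers in A&D and O&C. Markers of basal cells and respiratory ciliated cells did so in O&C. The part of these markers in the receptor values was not tested.

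With acetophenone and decanal, 2 of the 183 tested members were called higher in A+D mice than in Control mice, and none was called lower. In A&D mice 6 were called higher than in Control, and none was called lower. Of all genes tested, 0.296% were called higher and 0.026% lower in A+D, and 1% were called higher and 0.0208% lower in A&D. Among the 683 other intact receptors tested, 6.44% were called higher in A+D and 12.2% in A&D, against 1.09% and 3.28% of the members. Here and below, the other receptors include the 10 omitted by name, of which 3 were called higher in A+D and 4 in A&D. The gap between members and other receptors is therefore partly set by the choice of members. At an unadjusted p under 0.05, 12 of the 183 tested members were higher and 4 lower in A+D mice, beside 8.2% and 5.49% of all genes. In A&D mice 15 of the 183 were higher and 10 lower, beside 6.86% and 5.02%. DESeq2 called none lower in either. The median log2 fold change of the tested members was -0.09 in A+D and -0.08 in A&D, beside 0.02 and -0.002 over all genes. Each odour group was compared with the same 3 Control libraries.

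Olfr1087 (MOR188, ENSMUSG00000075174) and Olfr1104 (MOR207, ENSMUSG00000075166) were the members called under both ways of delivery. Olfr1087 had 11.5, 7.26 and 5.59 CPM in the 3 A+D mice and 18.1, 13 and 15.6 CPM in the 3 A&D mice, against 1.25, 1.68 and 0.992 CPM in the 3 Control mice. Every A+D and A&D value exceeded every Control value (log2 fold change 2.63 ± 0.34, adjusted p = 0.000502 in A+D; log2 fold change 3.57 ± 0.35, adjusted p = 5.44e-06 in A&D). Olfr1104 had 24, 19.3 and 21.8 CPM in A+D and 38.2, 41.3 and 30.4 CPM in A&D, against 4.32, 5.74 and 5.83 CPM in Control. It was the member with the most counts in all 3 A&D libraries, and again no values overlapped with Control (log2 fold change 2.03 ± 0.20, adjusted p = 9.78e-06 in A+D; log2 fold change 2.79 ± 0.20, adjusted p = 1.11e-07 in A&D).

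The other 4 members called in A&D mice were Olfr1009, Olfr1124, Olfr1254 and Olfr1054. Olfr1124 (MOR264, ENSMUSG00000050772) had 16.5, 15.4 and 14.3 CPM in A&D, against 4.24, 3.83 and 3.1 CPM in Control (log2 fold change 2.05 ± 0.25, adjusted p = 8.46e-05). Olfr1254 (MOR231, ENSMUSG00000075074) had 13, 11.2 and 9.85 CPM in A&D, against 3.35, 2.47 and 3.72 CPM in Control (log2 fold change 1.83 ± 0.27, adjusted p = 0.000604). For both of these receptors all A&D mice lay above all Control mice. Olfr1009 (MOR175) was less abundant, with 3.82 ± 0.941 CPM in A&D and 0.863 ± 0.186 CPM in Control (log2 fold change 2.14 ± 0.31, adjusted p = 0.000483). In A+D mice these 3 receptors had log2 fold changes over Control of 0.57 for Olfr1124, 0.60 for Olfr1254 and 0.84 for Olfr1009, none past the threshold. Olfr1054 (MOR188) had 1.88 ± 0.561 CPM in A&D and 0.541 ± 0.129 CPM in Control (log2 fold change 1.78 ± 0.41, adjusted p = 0.042). Its call was the weakest of the 6, and it was lost in 8 of 13 alternatives, among them each that left out a Control or A&D replicate, with adjusted p up to 0.268.

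With octanal and cis-3-hexenol more members were called. In O+C mice 15 members were called higher and 4 lower than in Control mice, and in O&C mice 19 were called higher and 14 lower. Of all genes tested, 5.74% were called higher and 2.35% lower in O+C, and 9.33% higher and 5.41% lower in O&C. The members' shares were 8.2% and 2.19% in O+C and 10.4% and 7.65% in O&C, and those of other receptors were 12.2% and 4.1% in O+C and 16.8% and 8.35% in O&C. The median log2 fold change of the tested members was -0.38 in O+C and -0.42 in O&C, beside -0.01 and -0.04 over all genes, while the called higher members had medians of 2.44 and 2.20. The median of the other receptors was -0.31 in O+C and -0.38 in O&C. When library scaling was computed on receptors alone, the split of calls higher and lower in O&C was 23 and 5, and the medians of members became -0.14 in both groups.

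Olfr1240 (MOR231, ENSMUSG00000111174) had the most counts of any member in all 6 octanal/cis-3-hexenol libraries. It had 77.2, 57.3 and 54.9 CPM in O+C and 46, 86.8 and 72.3 CPM in O&C, against 8.49, 10.3 and 12.7 CPM in Control. No values overlapped (log2 fold change 2.59 ± 0.24, adjusted p = 7e-06 in O+C; log2 fold change 2.7 ± 0.24, adjusted p = 2.83e-06 in O&C), and it made up 9.55% to 13.0% of the summed member level in those 6 libraries. Without Olfr1240 the summed level of the members was 518 CPM in O+C and 552 CPM in O&C, against 523 CPM in Control. Other MOR231 receptors were also called. Olfr1256 (ENSMUSG00000075073) had 26.2, 21.8 and 17.1 CPM in O+C and 15.9, 31.5 and 30 CPM in O&C, against 4.77, 3.79 and 3.47 CPM in Control. Olfr1243 (ENSMUSG00000075084) had 19.4, 12.8 and 11.9 CPM in O+C and 15.8, 23.2 and 30.4 CPM in O&C, against 3.07, 2.83 and 2.77 CPM in Control. For both, all 6 exposed mice lay above all Control mice, with log2 fold changes over Control of 2.44 ± 0.25 and 2.68 ± 0.25 for Olfr1256 in O+C and O&C, and 2.35 ± 0.29 and 3.0 ± 0.29 for Olfr1243. Olfr1242 and Olfr1238 of the same family were also called higher in both groups.

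Other families also held receptors that rose in both groups. Olfr1121 (MOR264) had 2.5, 3.98 and 1.24 CPM in O+C and 2.99, 3.11 and 3.56 CPM in O&C, against 0.404, 0.0798 and 0.331 CPM in Control, with the 3 Control counts at 10, 2 and 8. Its log2 fold change was 3.22 ± 0.58 in O+C and 3.55 ± 0.58 in O&C, the highest of all called members in O&C. Olfr1269 (MOR228) had 4.81 ± 1.51 CPM in O+C and 5.42 ± 2.09 CPM in O&C, against 0.727 ± 0.214 CPM in Control (log2 fold change 2.71 ± 0.46, adjusted p = 0.00177 in O+C; log2 fold change 2.89 ± 0.46, adjusted p = 0.000574 in O&C). Olfr1225 (MOR233) had 4.2 ± 0.65 CPM in O+C, against 0.66 ± 0.131 CPM in Control (log2 fold change 2.66 ± 0.35, adjusted p = 0.000156). These 3 receptors kept their calls in O+C under every alternative tried. Olfr1215 of MOR233, Olfr1115 of MOR264, Olfr1023, Olfr1155, Olfr1231, Olfr992 and Olfr1245 were called higher in both groups as well. In O+C the call was lost in 6 alternatives for Olfr1115, 5 for Olfr1231 and 3 for Olfr1155, and in O&C in 4 for Olfr1231, while Olfr1215, Olfr1023 and Olfr992 lost it in none. Olfr1110, Olfr1123, Olfr1126 and Olfr1214 were called higher in O&C and not in O+C, a difference between the groups that no test passed. Their calls in O&C were lost in 5 alternatives for Olfr1214, 4 for Olfr1126, 1 for Olfr1110 and none for Olfr1123.

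For some of these receptors the counts were low. Olfr1023 (MOR196) had 69 counts over the 3 O+C libraries and 7 over the 3 Control libraries, a ratio of 9.88 after scaling with a 95% interval of 4.55 to 25.5 (exact binomial, counting error only). Olfr1245 had 37 counts in O+C and 40 in O&C, against 5 in Control, a ratio of 7.42 (2.91 to 24.2) in O+C and 8.47 (3.34 to 27.5) in O&C. The call of Olfr1245 was lost in 6 of 11 alternatives in O+C and in 3 of 12 in O&C. Olfr1023 kept its call in O+C in all 12 alternatives that gave it a test. Olfr1023, Olfr1245 and Olfr1121 were not over the level of the count filter in all 3 Control libraries and passed it with the help of other libraries. Olfr1023 averaged 0.155 CPM in A+D and 0.0685 CPM in A&D, against 0.941 CPM in O+C and 0.614 CPM in O&C. It was thus tested only because of the groups in which it was high.

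Receptors called lower with octanal and cis-3-hexenol ranged from some of the more abundant members to some of the least. The 4 in O+C were Olfr1051, Olfr1057, Olfr1260 and Olfr1262. Olfr1260 (MOR232) had 5.98, 8.75 and 7.2 CPM in O+C, against 11.8, 11.9 and 17.6 CPM in Control (log2 fold change -0.91 ± 0.19, adjusted p = 0.00595). Olfr1262 (MOR234) had 7.32, 7.15 and 7.39 CPM in O+C, against 10.7, 10.2 and 18.9 CPM in Control (log2 fold change -0.86 ± 0.21, adjusted p = 0.016). Control replicate 3 was the highest of all 15 libraries for both, and without it the call of Olfr1262 was lost. Olfr1051 (MOR187) had 7 counts in O+C and 40 in Control, a ratio of 0.175 (0.066 to 0.396), and Olfr1057 (MOR185) had 0.354 ± 0.0748 CPM in O+C and 1.18 ± 0.33 CPM in Control. Each of these 2 lost its call in 5 of 12 alternatives. In O&C the 4 with the most negative fold change were Olfr1221, Olfr1036, Olfr1054 and Olfr1122. Olfr1221 (MOR233) had 5 counts in O&C and 43 in Control, a ratio of 0.123 (0.038 to 0.310). Olfr1036 (MOR245) had 9 counts in O&C and 63 in Control, a ratio of 0.151 (0.066 to 0.306). Olfr1054 had 10 counts in O&C and 40 in Control, a ratio of 0.265 (0.118 to 0.539), and thus was called higher in A&D and lower in O&C than in the same Control mice. Olfr1122 (MOR264) had 0.39, 0.451 and 0.223 CPM in O&C, against 1.13, 1.44 and 1.03 CPM in Control (log2 fold change -1.74 ± 0.44, adjusted p = 0.0129). All 4 were below every Control mouse in O&C. Their calls in O&C were lost in 3 of 11 alternatives for Olfr1221, 5 of 12 for Olfr1036, 3 of 12 for Olfr1054 and 2 of 13 for Olfr1122, mostly on leaving out 1 mouse. The count of members called lower in O&C depended on single mice. It was 2 without O&C replicate 1, 4 without O&C replicate 3, 5 without Control replicate 2, 6 without Control replicate 3, 8 without O&C replicate 2 and 9 without Control replicate 1. In O+C it was 1 without O+C replicate 1, 2 without O+C replicate 3 and 2 without Control replicate 2 or 3.

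Set directly against each other, the odorant pairs separated 50 of the 183 tested members. The acetophenone/decanal mice (A+D and A&D, weighted equally) were higher than the octanal/cis-3-hexenol mice (O+C and O&C) for 28 members in 19 families and lower for 22 members in 11 families. Of all genes tested, 6.74% were called higher and 9.03% lower in this comparison, and the members' shares were 15.3% and 12%. Among the other receptors 21.2% were called higher and 13.9% lower. Of the 50 members, 30 showed no overlap between the 6 mice of each pair, and 37 differed by more than 2-fold, 18 of them higher and 19 lower. Both counts were taken among members already called, and the shares among all genes were not computed. They therefore do not set the members apart from other genes. Some called members were low in Control and passed the count filter with the help of other libraries, which favours such a contrast. Among them were Olfr1023, Olfr1043, Olfr1056, Olfr1121 and Olfr1201, with means of 0.0948, 0.187, 0.201, 0.271 and 0.352 CPM in Control. The members called higher numbered 17 without A&D replicate 1 or O&C replicate 1 and 18 without O+C replicate 1 or O&C replicate 3. In this comparison library scaling on receptors alone gave 17 members higher and 26 lower.

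The 5 members with the most positive contrast were Olfr1087, Olfr1104, Olfr1054, Olfr1051 and Olfr1201. Olfr1087 averaged 8.12 ± 3.05 CPM in A+D and 15.5 ± 2.57 in A&D, against 0.876 ± 0.127 CPM in O+C and 0.464 ± 0.377 in O&C (log2 fold change 4.13 ± 0.27, adjusted p = 1.26e-08). Olfr1104 averaged 21.7 ± 2.37 CPM in A+D and 36.6 ± 5.6 in A&D, against 4.01 ± 0.904 CPM in O+C and 3.98 ± 0.848 in O&C (log2 fold change 2.82 ± 0.14, adjusted p = 4.31e-10). For both receptors the 6 acetophenone/decanal mice lay above the 6 octanal/cis-3-hexenol mice, and Olfr1087 was also called lower in O&C than in Control (log2 fold change -1.5 ± 0.43, adjusted p = 0.0268). That call in O&C was lost without Control replicate 1 or 2 and without O&C replicate 1 or 2. Olfr1054 averaged 0.856 ± 0.137 CPM in A+D and 1.88 ± 0.561 in A&D, against 0.23 ± 0.0452 CPM in O+C and 0.142 ± 0.0866 in O&C (log2 fold change 2.77 ± 0.33, adjusted p = 3.26e-05). Olfr1051 had a log2 difference of 2.31 ± 0.41 and Olfr1201 (MOR230) of 2.13 ± 0.40, and neither averaged over 1.1 CPM in any group. Olfr1201 averaged 0.836 CPM in A+D and 1.02 in A&D, against 0.15 in O+C, 0.287 in O&C and 0.352 in Control. It was not over the level of the count filter in all 3 Control libraries, so its place in this list was favoured by the filter. Neither Olfr1051 nor Olfr1201 was called higher than Control in A+D or A&D, and Olfr1051 was called lower than Control in O+C.

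The 5 with the most negative contrast were Olfr1240, Olfr1215, Olfr1023, Olfr1256 and Olfr1225. Olfr1240 averaged 8.2 ± 2.27 CPM in A+D and 7.58 ± 0.65 in A&D, against 63.1 ± 12.2 CPM in O+C and 68.4 ± 20.6 in O&C (log2 fold change -3.06 ± 0.17, adjusted p = 4.71e-09). Olfr1215 (ENSMUSG00000100016) had 1.47, 1.37 and 1.14 CPM in A+D and 1.2, 0.732 and 0.558 CPM in A&D, against 13, 8.39 and 7.86 CPM in O+C and 5.68, 7.91 and 8.23 CPM in O&C (log2 fold change -3.0 ± 0.21, adjusted p = 2.78e-08). All 6 acetophenone/decanal mice lay below all 6 octanal/cis-3-hexenol mice for each of these 5 receptors. The contrast was -2.78 ± 0.18 for Olfr1256, -2.59 ± 0.25 for Olfr1225 and -2.81 ± 0.39 for Olfr1023. Olfr1023 passed the count filter through its octanal/cis-3-hexenol libraries, so its place in this list was favoured by the filter. All 10 receptors kept their direction and their call between the odorant pairs under the 19 alternatives of this comparison, the largest adjusted p being 0.00812, for Olfr1201. In the test of any difference among the 5 groups, 34 of the 183 tested members were called. This was 18.6%, against 9.94% of all genes tested and 29.4% of the other receptors, which include the 10 omitted by name, 9 of them called. The group with the highest mean was A&D for 12 of the 34, O&C for 12, O+C for 6, Control for 3 and A+D for 1.

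**Figure D1:**
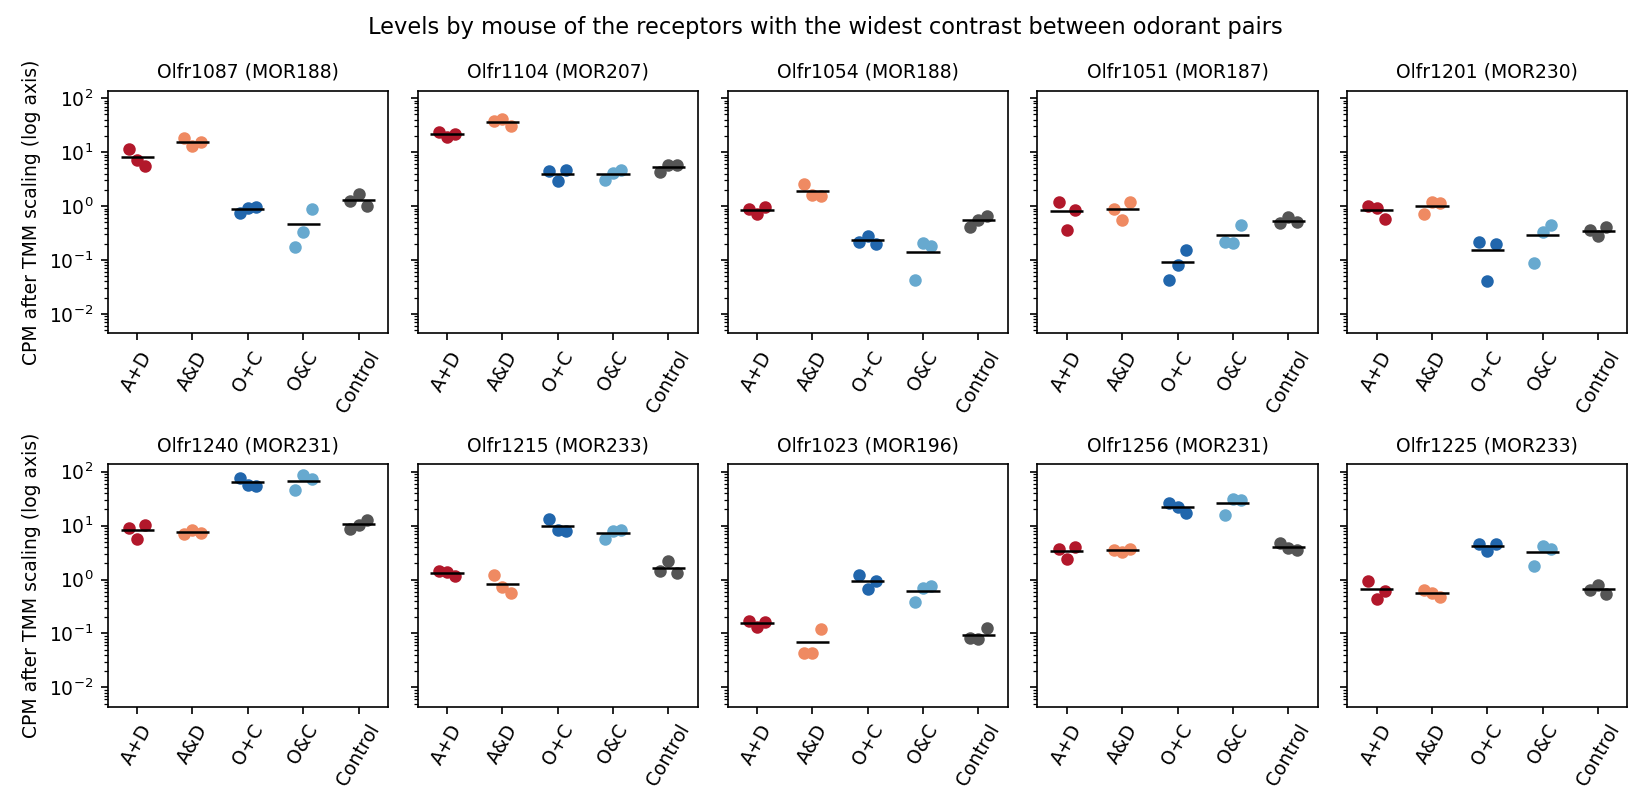
Level of the 10 members with the widest contrast between odorant pairs, in CPM on a log axis, with 1 point per mouse and a line at the group mean (n = 3 per group). The upper row is higher in A+D and A&D than in O+C and O&C, the lower row is the reverse, and Olfr1240 reaches 86.8 CPM in O&C.

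**Figure D2:**
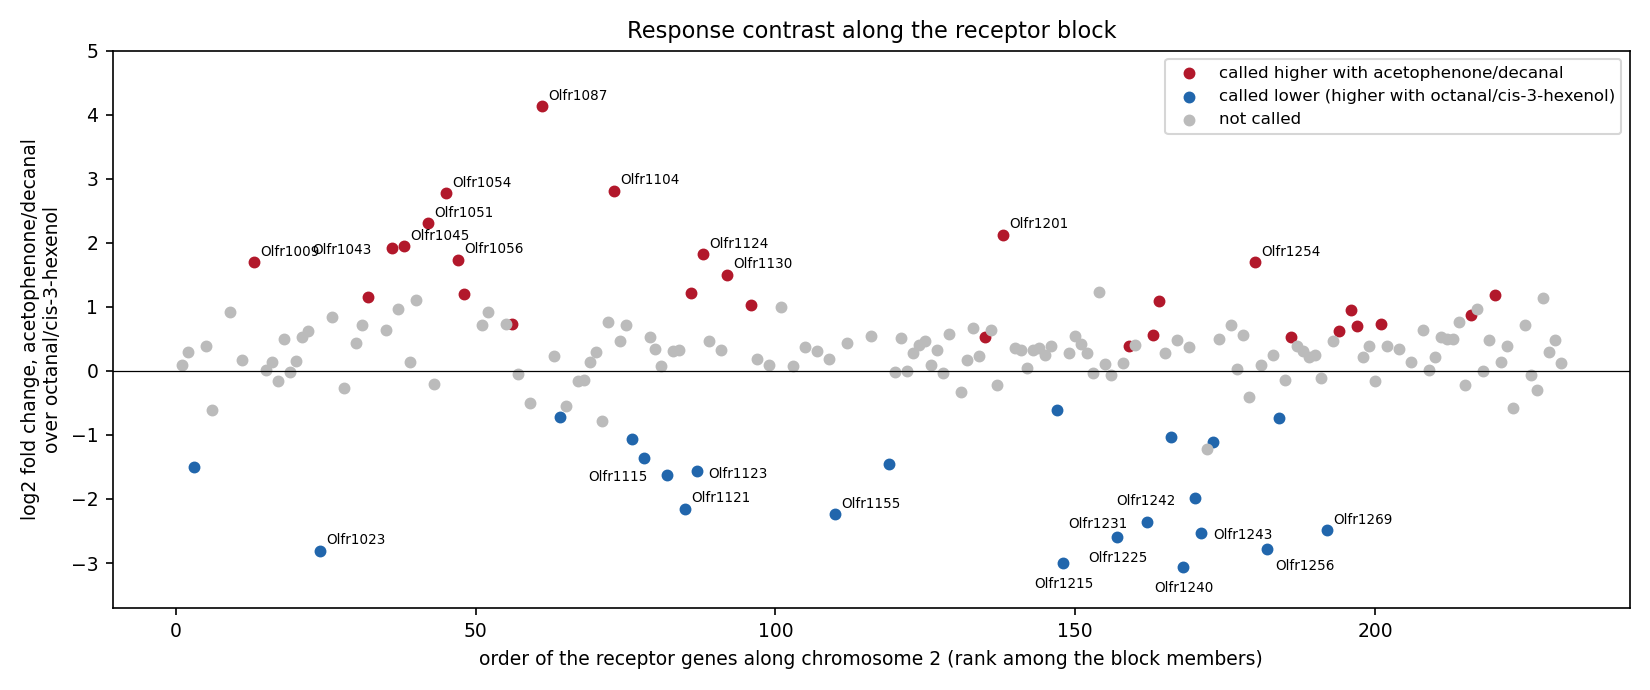
Log2 fold change of acetophenone/decanal over octanal/cis-3-hexenol mice for the tested members on chromosome 2, in their order along the chromosome (GRCm38 annotation). Red points were called higher and blue points lower, names are given where a called change was at least 1.5 on the log2 scale, and both colours occur across the row.

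Families were not uniform in their response. The calls in this paragraph are between the odorant pairs and not against Control. In MOR231, 5 of the 14 members were called lower in acetophenone/decanal mice, 8 were not called, and Olfr1254 was called higher. The summed level of the 14 was 49.1 CPM in A+D mice, 55.2 CPM in A&D mice, 149 CPM in O+C mice, 177 CPM in O&C mice and 54.7 CPM in Control mice. As a share of the summed member level, MOR231 took 8.64% to 9.68% in the A+D and A&D libraries, 23.2% to 29.7% in the O+C and O&C libraries and 9.73% to 11.4% in the Control libraries. In MOR264, 3 of 13 tested members were called higher and 3 lower. In MOR233, 2 of 16 were called higher and 3 lower, and the summed level stayed between 89.5 CPM in O&C and 104 CPM in Control. The higher calls of MOR233 were lost in 14 of the 19 alternatives for Olfr1228 and in 4 for Olfr1232. In MOR185, 3 of 6 tested members were called higher and none lower, and the other 3 had positive values too, from 0.64 to 0.96. MOR245, with 21 tested members, had 3 called higher and none lower, and MOR248, with 12 tested, had 2 called higher and none lower. The 3 calls in MOR245 were lost in 14 of the 19 alternatives for Olfr1276, 11 for Olfr1275 and 5 for Olfr1306, so the count for that family rests on weak calls. The call of Olfr1043 in MOR185 was lost in 5 and that of Olfr1280 in MOR248 in 8. In MOR213, 6 members were tested and none was called. MOR188 had 3 tested members, of which Olfr1087 and Olfr1054 were called higher, and its summed level was 9.33 CPM in A+D mice, 18.1 CPM in A&D mice, 1.51 CPM in O+C mice, 1.11 CPM in O&C mice and 2.83 CPM in Control mice.

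**Figure D3:**
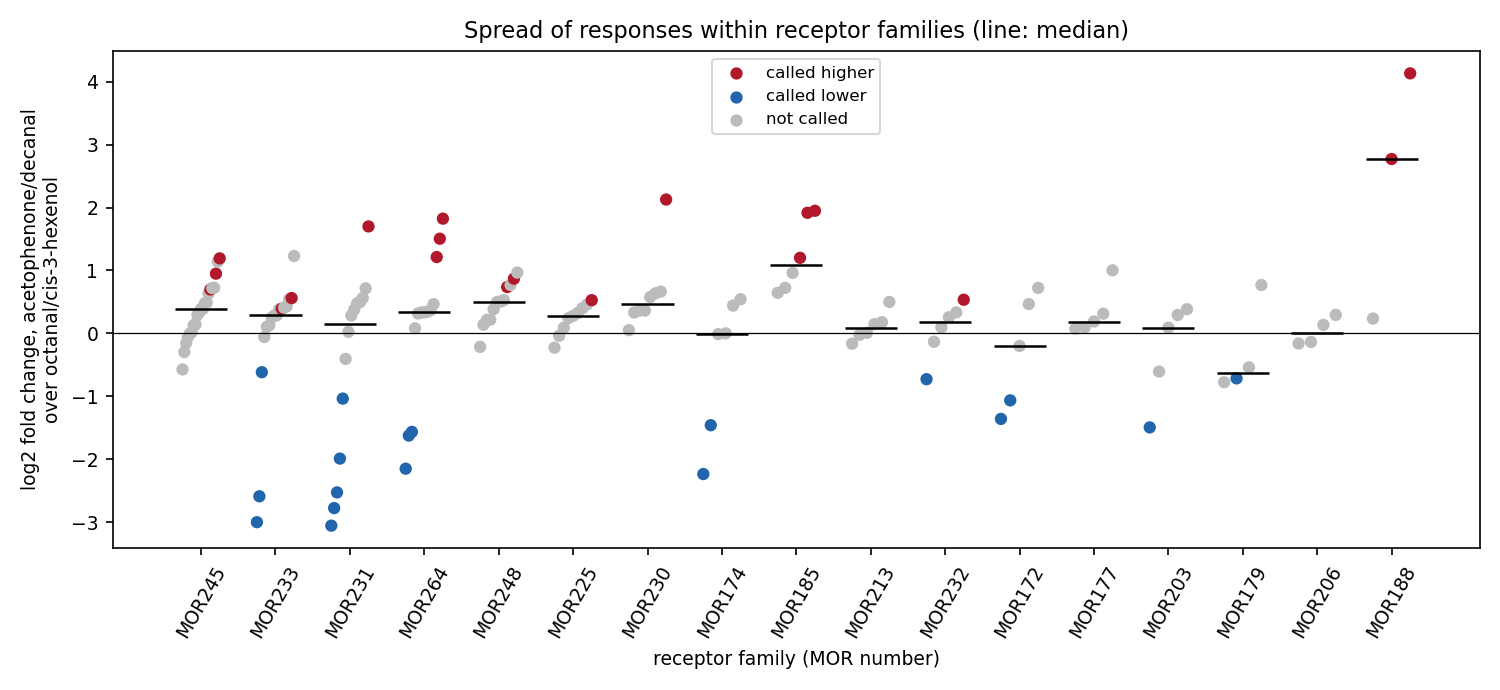
Log2 fold change of acetophenone/decanal over octanal/cis-3-hexenol mice for the tested members of each family with at least 4 tested members and of MOR188, with 1 point per receptor and a line at the family median. MOR231, MOR233, MOR264 and MOR232 hold calls in both directions, and MOR185, MOR245 and MOR248 in 1 direction, those of MOR245 each lost in at least 5 alternatives. The higher calls of MOR233 were lost in 14 alternatives for Olfr1228 and 4 for Olfr1232. In MOR232 the higher call, Olfr1260, was lost in 1 and the lower call, Olfr1258, in 8.

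**Figure D4:**
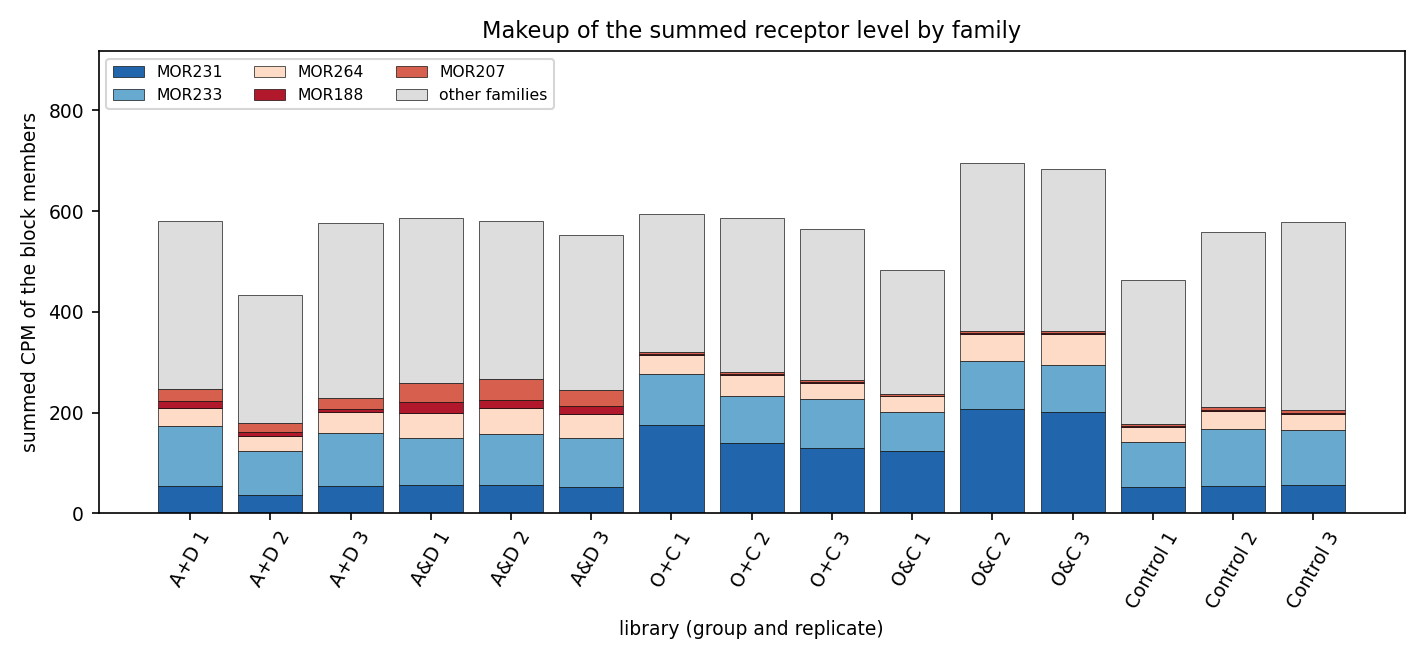
Summed CPM of the 232 members in each library, divided by receptor family, with MOR231 at the bottom of each bar. MOR231 takes 23.2% to 29.7% of the bar in the 6 O+C and O&C libraries and at most 11.4% elsewhere, and the total is lowest in A+D replicate 2, at 433 CPM.

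Neighbouring genes were compared for their calls. Among intact receptors of chromosome 2, 129 adjacent pairs had both genes tested as members. In 70 of them neither gene was called between the odorant pairs, in 50 one was called, and in 9 both were, 5 in the same direction and 4 in opposite directions. Over all 16653 pairs of tested members, both were called in 1225, 609 in the same direction and 616 in opposite directions. These counts do not set neighbours apart from other pairs. The row Olfr1121, Olfr1122, Olfr1123 and Olfr1124 alternated, with log2 differences between acetophenone/decanal and octanal/cis-3-hexenol mice of -2.15 ± 0.37, 1.21 ± 0.30, -1.57 ± 0.26 and 1.82 ± 0.18. All 4 are MOR264 receptors and all 4 were called. Olfr1122 averaged 1.15 CPM in A+D and 1.49 CPM in A&D, against 1.2 CPM in Control, 0.887 CPM in O+C and 0.355 CPM in O&C. It was called higher than Control in neither A+D nor A&D and lower than Control in O&C. Olfr1123 had 4.74, 2.17 and 3.63 CPM in A+D and 1.97, 2.28 and 3.39 CPM in A&D, against 5.86, 5.94 and 4.78 CPM in O+C and 6.16, 15.6 and 21.2 CPM in O&C. The groups of the 2 pairs did not overlap for Olfr1123, and they overlapped for the other 3. Olfr1242 and Olfr1243, next to each other in MOR231, were both lower in acetophenone/decanal mice, by log2 differences of -1.99 ± 0.15 and -2.53 ± 0.21.

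Sequence identity was compared with the response for the members with a coding sequence in the annotation, 230 of the 232, with coding lengths of 909 to 1116 bases. The median identity of a pair was 53.3% and the highest was 98.7%. Among tested members, the absolute difference in log2 response between the odorant pairs had a median of 0.48 over the 206 pairs with at least 80% identity, 0.59 over the 2162 pairs with 60% to under 80%, and 0.64 over the 14285 pairs under 60%. The 90th percentile of the same difference did not fall in that order, at 2.66, 2.86 and 2.57. Pairs share receptors and are not independent, so no test was made. Where both receptors of a pair with at least 80% identity were called, 7 pairs went in the same direction and 4 in opposite directions. The same counts were 117 and 84 at 60% to under 80% identity, and 485 and 528 under 60%. With so few pairs of at least 80%, no conclusion is drawn from the 7 and 4. The 4 opposite pairs were Olfr1214, Olfr1215 and Olfr1225, each with Olfr1228, and Olfr1246 with Olfr1254. Olfr1228 had a log2 difference of only 0.39, and its call was lost in 14 alternatives, so the pairs with it rest on 1 weak call. The calls of Olfr1246 and Olfr1254 were lost in no alternative. Olfr1214, Olfr1215 and Olfr1225 also formed same-direction pairs with each other. Olfr1242 and Olfr1243, at 92.9% identity, had the smallest summed p among pairs called in 1 direction. Olfr1215 and Olfr1221, at 81.0%, differed most. Olfr1215 had a log2 difference of -3.0 ± 0.21 and was called, and Olfr1221 had 1.23 ± 0.58 and was not called (adjusted p = 0.157). In the sequences above, 25 of the 108 bases of Olfr1221 and 18 of those of Olfr1225 differed from Olfr1215. The 16 tested pairs of at least 95% identity held no pair with both receptors called, and reads of such pairs may have been divided between them in the counting.

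The study also compared delivery of an odorant pair on 1 paper with delivery on 2 papers. Between A+D and A&D, 1 member was called lower in A+D and none higher, beside 0.12% and 0% of all genes. At an unadjusted p under 0.05, 3 of the 183 tested members were higher and 12 lower, beside 1.76% and 2.15% of all genes, and DESeq2 called none higher and 3 lower. The 1 member called was Olfr1124, with 6.84, 3.32 and 6.36 CPM in A+D and 16.5, 15.4 and 14.3 CPM in A&D (log2 fold change -1.48 ± 0.24, adjusted p = 0.0173). All A+D mice lay below all A&D mice, and the lowest was A+D replicate 2. The call was lost without A+D replicate 3, without A&D replicate 1, without A&D replicate 2 and when only the A+D and A&D libraries were fitted, with adjusted p up to 0.287. Without A+D replicate 2 the members called lower numbered 2. The other members called in A&D against Control were also lower in A+D than in A&D without passing the threshold. The log2 differences were -1.3 ± 0.29 for Olfr1009, -1.23 ± 0.26 for Olfr1254, -1.13 ± 0.39 for Olfr1054, -0.94 ± 0.30 for Olfr1087 and -0.76 ± 0.18 for Olfr1104, with adjusted p from 0.103 to 0.994. For all 5, the A+D mice lay below the A&D mice without overlap. They were picked for high values in A&D, which favours this order, and the share of all genes without overlap was not computed. No conclusion on delivery is drawn from it. Of the 28 members higher in acetophenone/decanal mice, 21 had a lower mean in A+D than in A&D, beside 95 of all 183 tested members.

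Between O+C and O&C no member was called in either direction, and no gene at all was called (0% of all genes tested in each direction). At an unadjusted p under 0.05, 4 of the 183 tested members were higher in O+C and 10 lower, beside 2.29% and 1.7% of all genes. DESeq2 also called no member. The 2 with the smallest p were Olfr1123 and Olfr1155. Olfr1123 had 5.86, 5.94 and 4.78 CPM in O+C and 6.16, 15.6 and 21.2 CPM in O&C, a log2 difference of -1.37 ± 0.36. Olfr1155 (MOR174) had 1.25, 2.37 and 1.71 CPM in O+C and 3.3, 4.26 and 4.94 CPM in O&C, a log2 difference of -1.23 ± 0.33. In both, each O+C mouse lay below each O&C mouse, but the adjusted p was 1. Olfr1240 had a log2 difference between O+C and O&C of -0.12 ± 0.22, and its mice overlapped. Of the 22 members higher in octanal/cis-3-hexenol mice, 15 had a lower mean in O+C than in O&C, beside 82 of all 183 tested members.

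The difference between the 2 delivery effects, A+D minus A&D against O+C minus O&C, was called for no member. Over all genes 0% were called higher and 0.0104% lower. At an unadjusted p under 0.05, 3 of the 183 tested members were higher and 8 lower, beside 1.43% and 1.26% of all genes, and DESeq2 called none. The smallest p-values were those of Olfr1123, with a log2 difference of 1.83 ± 0.53 (adjusted p = 1), and Olfr1087, with -1.86 ± 0.54 (adjusted p = 1).

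**Figure D5:**
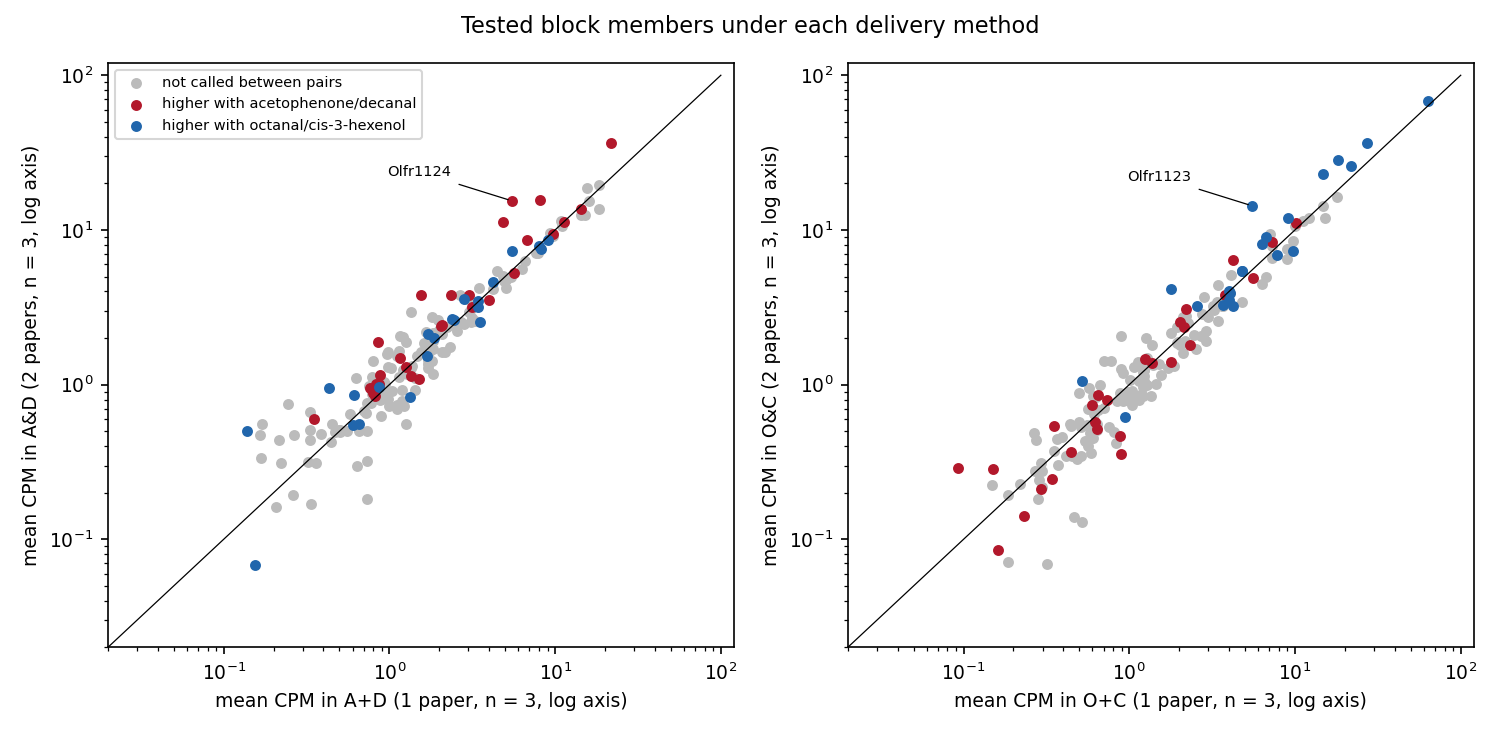
Mean CPM of the tested members (n = 3 mice per group, log axes), with delivery on 1 paper on the horizontal axis and on 2 papers on the vertical axis, for acetophenone/decanal at left and octanal/cis-3-hexenol at right. The line marks equal levels, and Olfr1124 and Olfr1123 lie above it, with 15.4 CPM in A&D and 14.3 CPM in O&C.

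Among receptors of known ligand in the run, Olfr1019 (MOR180) responds in mice to TMT, a compound of fox odour. It had 1.8 ± 0.804 CPM in A+D mice, 1.42 ± 0.186 CPM in A&D mice, 1.15 ± 0.482 CPM in O+C mice, 1.06 ± 0.247 CPM in O&C mice and 1.69 ± 0.554 CPM in Control mice, and was called in no comparison. Its log2 fold change over Control ran from -0.67 ± 0.41 in O&C to 0.09 ± 0.39 in A+D.

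The genes around the receptor in the neuron were counted from lists of known genes. Of 20 genes of olfactory signal transduction, among them the G protein subunit Gnal, the cyclase Adcy3 and the channel subunit Cnga2, none was called higher than Control in A+D mice, 3 were in A&D mice, 17 in O+C mice and 19 in O&C mice, and none was called lower. Of all genes tested, 0.296%, 1%, 5.74% and 9.33% were called higher in these groups. Gnal, Adcy3, Cnga2, Omp and Stoml3 also belong to the mature neuron markers given above, so the list does not stand apart from those markers. Between acetophenone/decanal and octanal/cis-3-hexenol mice 15 of the 20 were called lower and none higher, beside 9.03% and 6.74% of all genes. Of 12 genes linked to neuron activity, 1 was called higher than Control in A+D mice, 5 were in A&D mice, 8 in O+C mice and 8 in O&C mice, and 9 were called lower in acetophenone/decanal than in octanal/cis-3-hexenol mice. Kcng1, a potassium channel subunit, was the 1 in A+D, with 23.3 CPM in A+D and 10.1 CPM in Control. Nr4a1, an immediate early transcription factor, averaged 59.0 CPM in acetophenone/decanal mice and 214 CPM in octanal/cis-3-hexenol mice, a log2 difference of -1.95 ± 0.11 (adjusted p = 1.24e-09).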

How the data were processed

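RNA that co-precipitated with phosphorylated S6 was sequenced in 15 libraries, 3 mice in each of 5 groups, and the labels place all in 1 batch. The deposited table holds expected counts per gene, estimates that need not be whole, made with STAR 2.7.10b and Salmon 1.10.1 on GRCm39 per the submitters' processing notes, which also name R 4.4.2. Whether strand was used is not given in the sources used here. Counts were rounded. Symbols matched 52029 of 57010 identifiers. Names, MOR families and gene order came from GRCm38 annotation.

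The main test was the robust quasi-likelihood F test of edgeR 4.0.16 (R 4.3.3), with TMM scaling, a mean per group over all 15 libraries and genes kept by filterByExpr (minimum count 10). It covered 19229 genes. P-values were two-sided and adjusted over all of them by the Benjamini-Hochberg method, and "called" means under 0.05. The ± after a log2 fold change is its standard error, and after a CPM it is the SD. The test was tried on simulated data. Depth is given as the total count of a library, and intervals on count ratios cover counting error only. DESeq2 1.42.0, RLE scaling, TMM on receptors, no filter, only the groups compared, a gland term, a replicate block and leaving out replicates were the alternatives. The replicates are described as biological, and each library is taken as 1 mouse.

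Members, lists and naming rules were chosen with earlier results of these data known. Named were up to 6 called higher and 4 lower per odour group by fold change, the called or 2 smallest p between delivery methods, 5 per direction between pairs, the 5 highest in Control, Olfr1019 and 2 pairs by identity. Identity was to come from proteins. It was computed on coding sequences (longest reading frame, GENCODE M21, aligned with MAFFT 7.526), since no protein table was used here. The conserved motif was found in the translated frame of 202 members.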

Additional observations from a re-analysis of the deposited data

How the results depend on the processing

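No value of a named member changed direction under an alternative that gave one. Of 621 values of named members under an alternative, 570 kept their direction and side of the threshold, 48 lost the call and 3 gained one. The calls kept under every alternative that gave a test were 2 of 2 in A+D, 5 of 6 in A&D, 11 of 19 in O+C, 13 of 33 in O&C and 30 of 50 between the odorant pairs. Without the filter on low counts, members called lower in A+D against Control were 1, higher in A&D 10, lower in O+C 11, lower in A+D against A&D 4 and lower in O+C against O&C 2. For the difference between delivery effects they were 1 higher and 1 lower, and for any difference among groups 52. Members called lower in O+C were 10 with a term for gland RNA, 8 with DESeq2, 11 with only the groups compared and 2 without members whose counts were mostly not whole. Only the groups compared gave 23 lower in O&C and 0 lower in A+D against A&D, for which DESeq2 gave 3. With TMM on receptors alone, 5 were lower in O&C, and 17 were higher between the odorant pairs. That scaling moved the median log2 fold change of all genes to 0.23 in O+C, 0.24 in O&C and -0.22 between the pairs, while the medians of the members were -0.14, -0.14 and 0.07. The summed level in O+C was 518 CPM without Olfr1240. The cause of these shifts was not tested.

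Leaving out 1 replicate gave 2 members higher and 0 to 1 lower in A+D, 5 higher in A&D, 11 to 13 higher and 1 to 4 lower in O+C, 15 to 21 higher and 2 to 9 lower in O&C, 0 to 2 lower in A+D against A&D, 17 to 33 higher and 18 to 22 lower between the pairs, and 26 to 44 for any difference. The 1 lower in A+D came without A+D replicate 1, and the 33 and 44 without A+D replicate 2. Same-numbered libraries deviated together in 3 of 30 pairs of groups (correlation over 0.1, range -0.331 to 0.144), so the numbers are not taken to pair mice. With the replicate block the counts were 2 higher in A+D, 5 in A&D, 13 higher and 4 lower in O+C, 18 higher and 11 lower in O&C, 1 lower in A+D against A&D, 24 higher and 19 lower between the pairs and 30 for any difference. Depth limits the 111 members under 1 CPM in Control, where 1 count is worth at most 0.0445 CPM.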
